A study of Mus musculus with 24 samples.

Results

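Among the 18 mice of this hippocampal RNA-seq series in which Egr1 was intact, the 6 with the highest and the 6 with the lowest level of Tsc22d3 were compared, so these 12 of the 24 mice were chosen by a measured value, the count of Tsc22d3 scaled to a total of 1000000 counts in each mouse (CPM). The series held 3 females and 3 males of each of 4 genotypes of adult mice. Egr1wt NesCre- mice (labelled wt (-)) were the complete wild type, Egr1wt NesCre+ mice (wt (+)) carried a Cre transgene under the Nestin promoter, Egr1f NesCre- mice (FF (-)) carried Egr1 alleles flanked by loxP sites, and Egr1f NesCre+ mice (FF (+), Egr1cKO) carried both. The loxP allele came from a C57BL/6N strain and the transgene from a Jackson Laboratory line, and Cre in this line acts in cells that descend from neural precursors, in brain regions other than the hippocampus as well. The numbers that the labels give the mice fall into separate ranges for Egr1wt and Egr1f mice, so the effect of the allele and that of the mouse series cannot be told apart. Egr1 itself was at 108 ± 27.7 CPM (SD, n = 6) in Egr1wt NesCre-, 85.6 ± 28.2 CPM in Egr1wt NesCre+, 93.4 ± 29.8 CPM in Egr1f NesCre- and 7.95 ± 1.93 CPM in Egr1cKO mice. The 6 Egr1cKO mice were left out of the ranking and served for a test that the ranking did not use.

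Tsc22d3 encodes GILZ, a leucine zipper protein that glucocorticoids induce in many tissues. Corticosterone, which the mouse adrenal gland secretes with the daily cycle and under stress, binds the glucocorticoid receptor encoded by Nr3c1 and, in the hippocampus, the mineralocorticoid receptor encoded by Nr3c2, and the bound receptors move to the nucleus and act on target genes through glucocorticoid response elements. Fkbp5, Sgk1 and Plin4 are other genes that this hormone induces in the brain: Fkbp5 encodes a co-chaperone that lowers the affinity of the receptor for its hormone, Sgk1 a kinase that controls ion channels and transporters, and Plin4 a protein that coats lipid droplets. No hormone was measured in these mice, and the time of day at which each hippocampus was collected is not given in the sources used here, so the ranking is one of Tsc22d3 transcript and nothing more.

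Total counts were 18025168 to 24995142 in the high mice, with a median of 23256785, and 18413714 to 24602732 in the low mice, with a median of 19873947. The labels name the tissue as hippocampus but the cell type as endocrine, while the sum over 8 neuron markers was 9688 to 10496 CPM in the high and 8529 to 11334 CPM in the low mice and none of the 8 was at 0. From here on, levels are CPM with library sizes corrected by the TMM method of edgeR, and differences are log2FC, the log2 of the ratio of levels. In a homogenate, fewer cells of a type and less RNA per cell cannot be told apart.

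In the ranking, Tsc22d3 (chrX:140539528-140600659 on GRCm38, minus strand) declined from 109.6 to 43.7 CPM, here without the later correction of library sizes. The widest steps lay inside the high group, from 109.6 to 95.3 CPM and from 93.3 to 81.7 CPM. The high mice held 109.6, 95.3 and 81.7 CPM in the 3 female Egr1f NesCre- mice, 77.9 in a male Egr1f NesCre- mouse (replicate 3), 93.3 in a male Egr1wt NesCre- mouse (replicate 1) and 80.2 in a male Egr1wt NesCre+ mouse (replicate 3). The low mice held 59.5 and 46.3 in a male (replicate 3) and a female (replicate 2) Egr1wt NesCre- mouse, and 54.0, 52.9, 49.6 and 43.7 in 2 female and 2 male Egr1wt NesCre+ mice. Both limits cut through neighbouring values. The last mouse inside the high group was at 77.9 and the first outside it at 72.7, and the last mouse inside the low group was at 59.5 and the first outside it at 64.2. All 12 mice stayed in their group when they were ranked by TMM-scaled CPM or by counts over the size factors of DESeq2. In the 6 Egr1cKO mice, which were not ranked, the same measure was 112.1, 102.1 and 71.5 in females and 62.0, 50.5 and 43.2 in males, so that their sexes did not overlap.

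**Figure D1:**
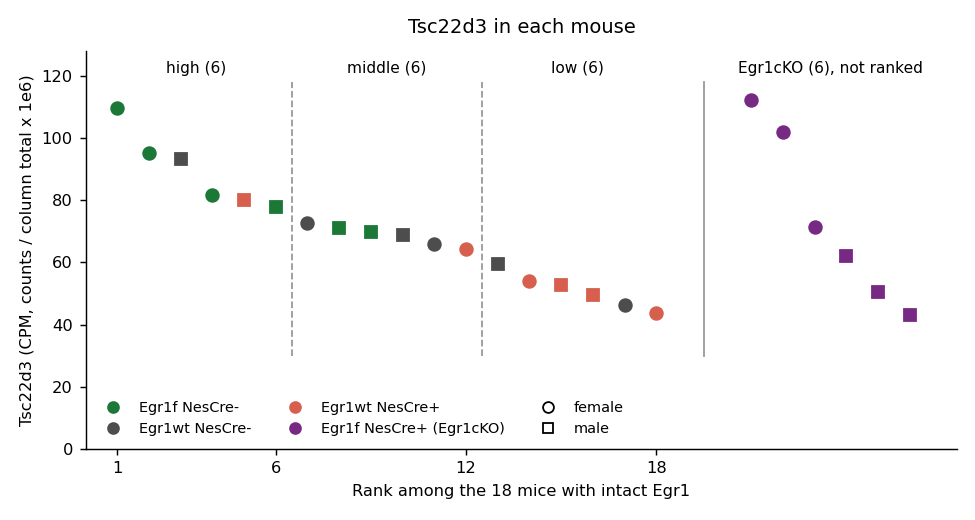
Tsc22d3 in each of the 24 mice, as CPM (counts over the column total), against the rank among the 18 mice with intact Egr1, with the 6 Egr1cKO mice to the right in falling order. Colours mark the genotype and shapes the sex; 4 of the 6 high mice are Egr1f NesCre- and 4 of the 6 low mice are Egr1wt NesCre+.

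Genotypes were unequally spread along the ranking. Of the 6 Egr1f NesCre- mice 4 were in the high group, 2 between the groups and 0 in the low group. Of the 6 Egr1wt NesCre- mice 1 was high and 2 were low, and of the 6 Egr1wt NesCre+ mice 1 was high and 4 were low. The high, the middle and the low group each held 3 females and 3 males. Since the labels did not enter the ranking, these differences could be tested. Tsc22d3 itself, however, was chosen with earlier results of these data known, and the p-values below do not account for that choice. Mean log2 CPM of Tsc22d3 was 6.37 ± 0.25 (SD, n = 6) in Egr1f NesCre- and 5.92 ± 0.33 (n = 12) in all Egr1wt mice, a difference of 0.45 (two-sided exact permutation test, p = 0.0112, adjusted over 3 comparisons p = 0.0336). Against the 6 Egr1wt NesCre- mice alone, an alternative chosen after the data were seen, the difference was 0.32 and missed the threshold (exact permutation p = 0.0866, adjusted p = 0.26). Among Egr1wt mice the NesCre+ mice were at 5.80 ± 0.32 and the NesCre- mice at 6.05 ± 0.33, a difference of -0.25 (exact permutation p = 0.199, adjusted p = 0.299). Females and males differed by -0.021 (exact permutation p = 0.906), with 9 mice of each sex. These comparisons pool the sexes or the genotypes. In females mean Tsc22d3 was 94.8 CPM in Egr1f NesCre- and 61.8 CPM in Egr1wt NesCre- mice (n = 3 each, TMM scaling). In males the same means were 73.0 and 73.8 CPM (n = 3 each). Whether the genotype difference depended on sex was not tested.

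The same labels were then tested across 18251 genes in edgeR, with genotype and sex in a shared fit. No gene passed an adjusted p of 0.05 for Egr1f NesCre- against Egr1wt NesCre- mice or for Egr1wt NesCre+ against Egr1wt NesCre- mice (0.0% called in each, unadjusted p under 0.05 for 1274 and 1101 genes), although DESeq2 called 11 and 38. This fit averages a genotype over both sexes, so a difference in a single sex can be missed. Within females the paper, with DESeq2, called Plin4, Xdh, Slc2a1 and Mfsd2a for Egr1f NesCre- mice. It called Hspb8 and Tiparp for female Egr1wt NesCre+ mice, and no gene within males. Between the sexes 10 genes passed (0.0548%), and neither Tsc22d3 nor a glucocorticoid-induced gene of those described here was among them. Tsc22d3 had a log2FC of 0.31 ± 0.15 (SE) for Egr1f NesCre- (adjusted p = 0.684 in edgeR's quasi-likelihood test, and 0.0499 without a filter on low counts, in a range of 0.0499 to 1 over all alternatives) and -0.26 ± 0.15 for Egr1wt NesCre+ mice (adjusted p = 0.748).

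Among the listed glucocorticoid-induced genes, Per1 and Sgk1 had the smallest p in the comparison of Cre carriers. Sgk1 was at 70.5, 102.4 and 141.1 CPM (lowest, median and highest) in the 6 Egr1wt NesCre- mice and at 56.9, 66.2 and 82.9 CPM in the 6 Egr1wt NesCre+ mice, and the 2 groups overlapped. Its log2FC was -0.65 ± 0.15 (SE), with an adjusted p of 0.407 in edgeR, 0.0152 in DESeq2 and 1.5e-13 in edgeR without a filter on low counts, in a range of 1.5e-13 to 0.818 over all alternatives. Per1, a clock gene that glucocorticoids also induce, had a log2FC of -0.45 ± 0.082 (adjusted p = 0.0889 in edgeR), and its 6 Egr1wt NesCre+ mice, at 73.6 to 97.1 CPM, did not overlap the Egr1wt NesCre- mice at 106.2 to 122 CPM. In the Egr1f NesCre- mice Sgk1 was at 101.8 to 155.4 CPM, above every Egr1wt NesCre+ mouse. Of 29 measured genes on a list of 30 known glucocorticoid-induced genes, 24 had a log2FC below 0 in Egr1wt NesCre+ mice (47.5% of all genes tested), 7 of them with an unadjusted p under 0.05 (2.91% of all genes), and their median log2FC was -0.15 beside 0.0085 for all genes. These 7 were Sgk1, Per1, Ddit4, Nfkbia, Errfi1, Txnip and Klf9. For Egr1f NesCre- mice 23 of the 29 were above 0 (50.2% of all genes) and 1, Xdh, had an unadjusted p under 0.05 (3.93% of all genes), with a median of 0.15.

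**Figure D2:**
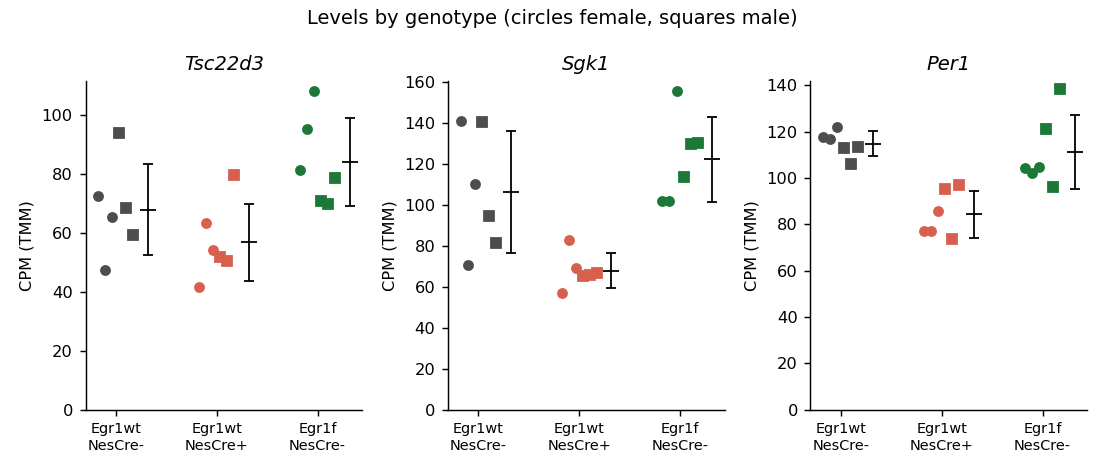
Levels of Tsc22d3, Sgk1 and Per1 in CPM with TMM scaling in the 6 mice of each genotype with intact Egr1, with circles for females, squares for males and bars for the mean ± SD. Sgk1 in the Egr1wt NesCre+ mice runs from 56.9 to 82.9 CPM and lies under all Egr1f NesCre- mice, and Per1 in these mice lies under all Egr1wt NesCre- mice.

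Between the high and the low mice every gene was read from the libraries that had chosen the groups, so what follows is a description and no test was made. Of 17085 genes other than Tsc22d3 with enough counts, 34 (0.199%) were higher in each high mouse than in any low mouse and 29 (0.17%) were lower. Nothing is read from these shares. A log2FC above 0 was found for 47.3% of the genes, and a FC of at least 1.2 upward for 7.52%. Tsc22d3, on which the mice were chosen, had a log2FC of 0.81, a ratio of 1.75.

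Sgk1 (chr10:21882184-21999903) was at 66.6, 116.2 and 155.4 CPM (lowest, median, highest) in the high mice and at 56.9, 67.4 and 81.3 CPM in the low mice. Its log2FC was 0.76. The groups overlapped through the male Egr1wt NesCre+ mouse of the high group, which was at 66.6 CPM while the other 5 high mice were at 101.8 CPM or more. Fkbp5 (chr17:28399094-28517527) was at 66.0, 74.2 and 83.6 CPM in the high and at 36.0, 56.2 and 80.8 CPM in the low mice, a log2FC of 0.34. Here the overlap came from a male Egr1wt NesCre+ mouse of the low group at 80.8 CPM, and all 5 other low mice were under every high mouse. Plin4 (chr17:56100591-56109803) was scarce, at 2.64, 7.07 and 17.1 CPM in the high and at 1.95, 2.92 and 4.36 CPM in the low mice, with a log2FC of 1.39. The highest of its values belonged to a female Egr1f NesCre- mouse and the lowest among the high mice to a male of that genotype. The 3 female Egr1f NesCre- mice, all in the high group, were at 6.14 to 17.1 CPM. Female Egr1wt NesCre- mice were at 2.45 to 3.03 CPM, without overlap. In males the same genotypes were at 2.64 to 5.59 and 2.96 to 9.25 CPM, so Plin4 also varied with genotype and sex. Plin4 overlaps Hdgfl2 on the opposite strand, and the libraries did not keep the strand.

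**Figure D3:**
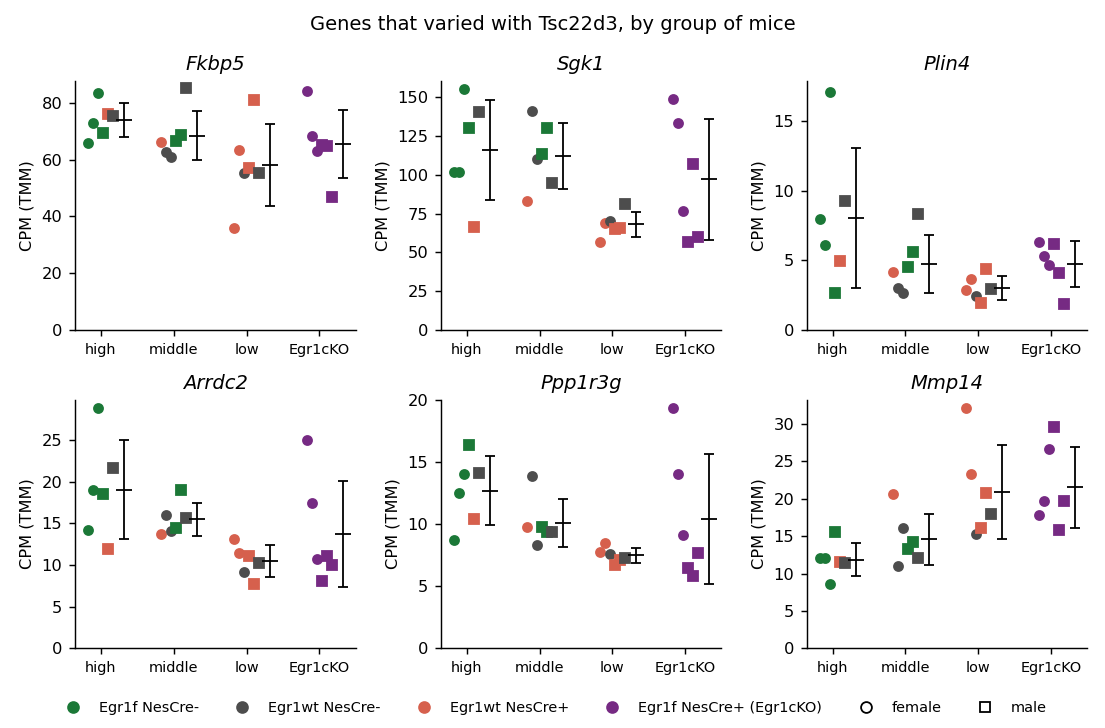
CPM with TMM scaling of Fkbp5, Sgk1, Plin4, Arrdc2, Ppp1r3g and Mmp14 in the 6 high, 6 middle and 6 low mice with intact Egr1 and in the 6 Egr1cKO mice, coloured by genotype, with bars for the mean ± SD. Ppp1r3g has no overlap between the high and low mice (8.68 to 16.4 against 6.73 to 8.49 CPM), while the other 5 genes overlap.

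For 2 of the genes, chosen because a window held a match, the letters around a transcription start are shown beside the values. Promoter windows of 300 bases, from 250 before to 50 after a start, were taken from RefSeq on GRCm38.p6, which had at least 1 window for 26 of the 31 genes made up of the list and Tsc22d3. They were searched on both strands for AGAACA, the 6-letter arm of the glucocorticoid response element, which reads TGTTCT on the other strand, and for the element with both arms and 3 bases between them, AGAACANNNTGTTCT, in which each arm also counts as a match to the shorter word. The 2 windows shown are the Sgk1 window that held the whole element and the Tsc22d3 window that held an arm, with matches in capitals. They lie at chr10:21993640-21993939 (plus strand) and chrX:140600473-140600772 (minus strand).
Sgk1: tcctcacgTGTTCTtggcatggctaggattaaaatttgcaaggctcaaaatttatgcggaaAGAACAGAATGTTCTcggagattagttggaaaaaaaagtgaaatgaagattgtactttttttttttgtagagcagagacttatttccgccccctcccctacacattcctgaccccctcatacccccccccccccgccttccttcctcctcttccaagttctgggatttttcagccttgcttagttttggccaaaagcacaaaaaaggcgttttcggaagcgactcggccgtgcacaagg
Tsc22d3: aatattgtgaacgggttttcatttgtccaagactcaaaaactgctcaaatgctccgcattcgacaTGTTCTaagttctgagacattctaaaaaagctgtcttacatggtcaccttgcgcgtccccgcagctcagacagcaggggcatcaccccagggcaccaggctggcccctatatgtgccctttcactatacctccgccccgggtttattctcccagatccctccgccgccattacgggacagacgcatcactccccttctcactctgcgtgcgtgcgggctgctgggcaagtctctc
The whole element of Sgk1, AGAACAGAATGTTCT, began at base 62 of its window, 189 bases before the transcription start. It was found in 3 of the 32851 windows, which belong to 3 of 27025 genes (0.0111%), and among the 26 listed genes with a window Sgk1 alone had it. An arm was found in 5 of the 26 (19.2%) and in 21.3% of all genes with a window, so the shorter word was about as frequent in the list as elsewhere. None of the 7 genes with a window among the 10 largest rises described below held an arm. Neither did the windows of Plin4, Hif3a, Arrdc2, Map3k6 and Fkbp5. Sgk1 also had an arm in its windows at chr10:21881934-21882233 and chr10:21991973-21992272, which are not shown. Both Sgk1 and Tsc22d3 had further windows at other starts that held no arm. A match is a description of the letters and not a site shown to be bound, and elements outside these windows were not looked for.

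Of the 29 listed glucocorticoid-induced genes 27 had a log2FC above 0 (93.1%, beside 47.3% of all genes), and their median was 0.31 beside -0.012. Upward FCs of at least 1.2 were found for 17 and a downward one for 1. None of the 29 was without overlap between the groups in either direction. Over all genes these shares were 0.199% higher and 0.17% lower, so nothing is read from this. Because the list contains Fkbp5, Sgk1 and Plin4, which were put forward together with Tsc22d3, its direction is not independent of earlier results.

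After Plin4, the largest differences on the list belonged to Hif3a, Arrdc2 and Map3k6. Hif3a, a relative of the hypoxia-inducible factors, was at 6.48, 10.7 and 16.3 CPM in the high and at 3.36, 4.70 and 8.51 CPM in the low mice (log2FC 1.04). Arrdc2, an arrestin domain protein, was at 11.9, 18.8 and 28.8 CPM in the high and at 7.79, 10.7 and 13.1 CPM in the low mice (log2FC 0.85), with just the male Egr1wt NesCre+ high mouse within the range of the low mice. Map3k6, a kinase of the MAP kinase cascade, had a log2FC of 0.81. Arl4d, a small GTPase, and the cell cycle inhibitor Cdkn1a followed with 0.61 and 0.53. Nfkbia, which encodes the inhibitor of NF-kB, had 0.42, Ddit4, an inhibitor of mTOR signalling, 0.35, Errfi1, an inhibitor of EGF receptor signalling, 0.34 and the metallothionein Mt1 0.30. Several well-known targets were nearly level: Klf9 had 0.072, Pdk4 0.13, Zbtb16 0.19 and Per1 0.22. Per1 was at 97.1, 104.4 and 138.5 CPM in the high and at 73.6, 90.5 and 116.7 CPM in the low mice. The 2 genes below 0 were Angptl4 (-0.14) and Dusp1 (-0.33). Dusp1, an immediate early phosphatase gene that neuronal activity induces as well, was at 6.68, 22.3 and 46.0 CPM in the low mice. Lcn2 had too few counts.

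**Figure D4:**
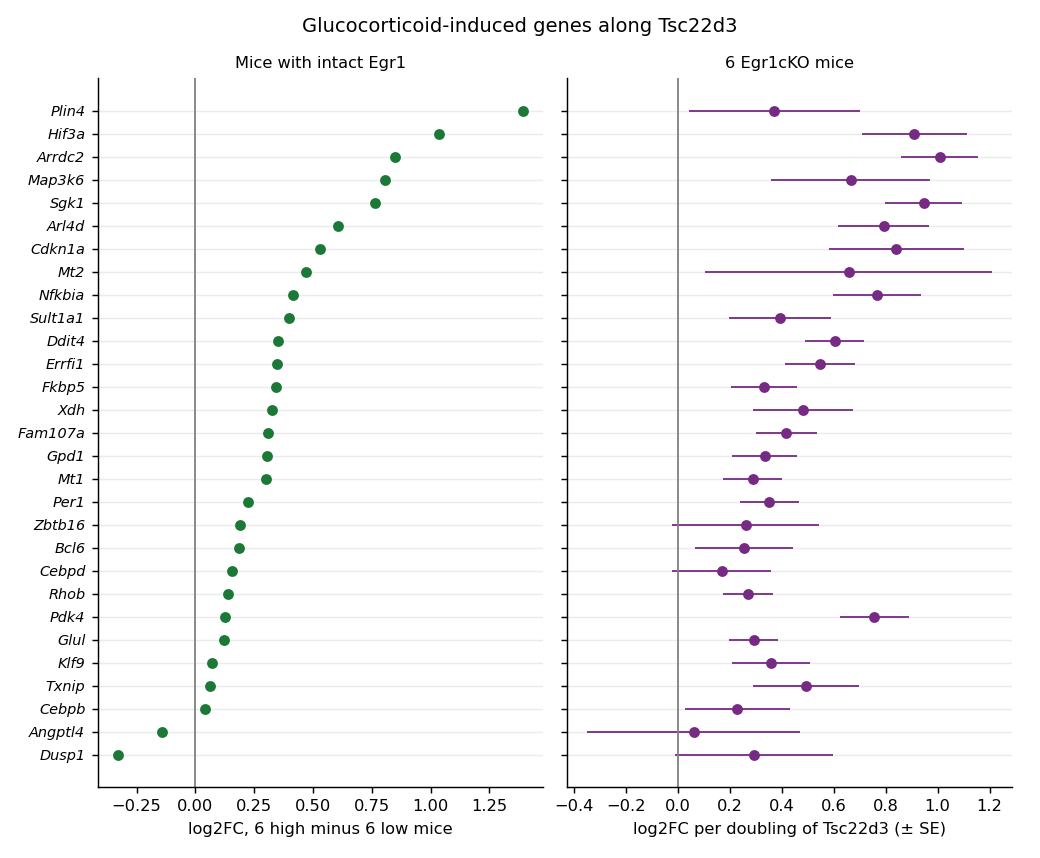
The 29 measured glucocorticoid-induced genes in the order of their log2FC between the 6 high and 6 low mice (left), beside the log2FC for each doubling of Tsc22d3 in the 6 Egr1cKO mice with bars for ± SE (right). On the left 27 points lie above 0 and Angptl4 and Dusp1 below it, and on the right all 29 lie above 0.

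The same description was made within parts of the 18 mice, by the Tsc22d3 values that had ranked them, and so adds no independent evidence. Among the 12 Egr1wt mice, the top 4 against the bottom 4 by Tsc22d3 gave a median of 0.25, with 23 of 29 genes above 0. Among the 6 Egr1f NesCre- mice, the top 2 against the bottom 2 gave 0.12, also with 23 above 0, and there the log2FC of Sgk1 was 0.070 while that of Plin4 was 1.18. Within the 9 females the top 3 against the bottom 3 gave 0.38 (27 above 0) and within the 9 males 0.21 (25 above 0). The mean of the 29 genes, each taken as its log2 deviation from the mean of the 18 mice, had a Pearson's r of 0.885 and a Spearman's rho of 0.856 with Tsc22d3 over those mice, r = 0.862 over the 12 Egr1wt and r = 0.746 (rho 0.543) over the 6 Egr1f NesCre- mice. Both axes of these correlations come from the same libraries and scaling, and they are given without a test.

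**Figure D5:**
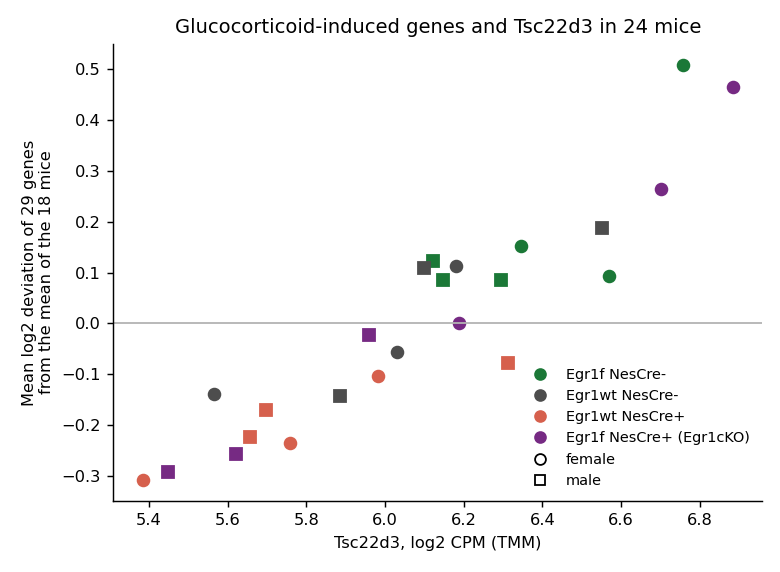
Mean log2 deviation of 29 glucocorticoid-induced genes from the mean of the 18 mice with intact Egr1, against log2 CPM of Tsc22d3 with TMM scaling, in all 24 mice. Points follow a rising band in which Pearson's r was 0.885 over the 18 mice; the male Egr1wt NesCre+ mouse of the high group lies below the other high mice.

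The 6 mice between the groups did not take a middle level for every gene. Sgk1 in them was at 82.9, 112 and 141.1 CPM (lowest, median, highest), with a median close to that of the high mice (116.2 CPM) and every mouse above every low mouse. Hif3a was at 7.32, 8.90 and 14.4 CPM and Arrdc2 at 13.8, 15.1 and 19.1 CPM. For both genes the middle median lay between the medians of the high and low mice. Plin4 was at 2.66, 4.36 and 8.37 CPM and Fkbp5 at 61.0, 66.4 and 85.2 CPM, and both overlapped the high and the low mice. Cdkn1a and Arl4d had middle medians of 5.18 and 10.3 CPM, nearer to the low mice (5.05 and 9.27 CPM) than to the high mice (6.79 and 14.5 CPM).

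Genes of the receptor axis showed no common direction. Of 14 receptor, chaperone, coregulator and hormone genes 8 were above 0, with a median of 0.030. The receptor gene Nr3c1 was at 59.5, 82.1 and 98.6 CPM in the high and at 80.9, 107.5 and 114.2 CPM in the low mice (log2FC -0.32, with overlap), and the mineralocorticoid receptor gene Nr3c2 had -0.24. The coactivator genes Ncoa1 and Ncoa2 and the corepressor gene Ncor1 were lower as well, at -0.27, -0.25 and -0.22. The chaperone genes Fkbp4 and Stip1 had 0.18 and 0.13, and Hsd11b1, whose product regenerates the active hormone, had 0.011. Crh, the hypothalamic releasing hormone that hippocampal interneurons also make, had 0.35 at a level of 0.792 to 2.43 CPM.

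Heat shock and unfolded protein genes were above 0 in 10 of 10 cases, with a median of 0.29. Hspa1b and Hspa1a, inducible HSP70 genes whose near-identical sequences can share reads, had 0.57 and 0.35, and Sdf2l1 and Hspa5, of the endoplasmic reticulum, 0.45 and 0.33. Their summed level nevertheless overlapped, at 1908 to 2659 CPM in the high and 1879 to 2424 CPM in the low mice. Of 15 clock and clock output genes 11 were above 0, with a median of 0.054, led by Per2 at 0.36 and with Arntl at -0.15. Activity-induced genes had 8 of 14 above 0 and a median of 0.079, and here the sexes went apart: the median was -0.28 within females and 0.27 within males. Npas4 and Fos, the first genes to respond to neuronal activity, had -0.78 and -0.32. Fos ran from 4.42 to 51.8 CPM in the low mice, and from 14.0 to 34.8 CPM in the high mice.

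Markers of the cell types that a hippocampal dissection can hold were compared as well. Neuron markers were above 0 in 4 of 8 cases with a median of -0.014, oligodendrocyte markers in 4 of 8 with -0.033, microglia markers in 3 of 8 with -0.098, and astrocyte markers in 2 of 8 with -0.094. Endothelial markers were below 0 in 7 of 8 cases, with a median of -0.34. Cldn5, a tight junction protein of brain endothelium, was at 11.8, 16.9 and 22.6 CPM in the high and at 18.01, 25.9 and 34.5 CPM in the low mice (log2FC -0.65), and Kdr, the receptor of VEGF, also had -0.65. Meningeal fibroblast markers were at a median of -0.35 and above 0 in 1 of 8 cases (Dcn at 0.0012), led by Igf2 at -0.98. The sums of these lists overlapped, at 119 to 192 CPM in the high and 170 to 230 CPM in the low mice for endothelial markers and at 71.4 to 117 and 87.1 to 158 CPM for meningeal fibroblasts. Blood markers had 1 of 5 above 0 and a median of -0.16, and striatal markers 4 of 8 and 0.046. Of 8 choroid plexus markers 6 were measured and all had a log2FC below 0, but their sum ran from 34.8 to 1045 CPM in the high and from 34.1 to 2058 CPM in the low mice, since Ttr was over 100 CPM in 2 high mice (290 and 962 CPM) and 1 low mouse (1906 CPM). The part of these cells in the differences was not tested. Without those 3 mice, an alternative chosen after the data were seen, 146 genes were higher and 156 lower without overlap, a count that rises with fewer mice by construction.

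The 10 largest differences upward among genes without overlap, with a mean of at least 1 CPM, were led by Gm19439, Slc39a5, Etnppl and Ppp1r3g. Gm19439, a transcribed region of the TEC class (chr3:88030878-88033150) that overlaps no other annotated gene, was at 6.73, 7.67 and 16.5 CPM in the high and at 2.59, 4.31 and 5.59 CPM in the low mice (log2FC 1.24). Etnppl, an astrocyte enzyme that breaks down phosphoethanolamine, was at 12.4, 15.0 and 21.4 CPM in the high and at 5.04, 8.40 and 12.4 CPM in the low mice (log2FC 0.83), so its groups all but touched. Ppp1r3g, a glycogen-targeting subunit of protein phosphatase 1, was at 8.68, 13.2 and 16.4 CPM in the high and at 6.73, 7.45 and 8.49 CPM in the low mice (log2FC 0.75). The zinc transporter gene Slc39a5 had 0.95 at a level near 1 CPM, and it overlaps Ankrd52 on the opposite strand. The others were the pseudogenes Itpa-ps1 (0.74) and Rps6-ps4 (0.60), which may share reads with their parent genes, the non-coding Mir670hg (0.61), the ERK phosphatase gene Dusp5 (0.42), Moxd1 (0.40) and Rrp8 (0.39). None of the 10 is on the list of glucocorticoid-induced genes. Nothing is read from this, as just 0.199% of all genes were higher without overlap.

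Downward, the 10 largest were 5930430L01Rik, Heatr5a, Zic2, Kcna4, Elf1, Gm47690, L3hypdh, Adam12, Pdgfrb and Disp1, with log2FCs from -0.59 to -0.41. Kcna4, a voltage-gated potassium channel gene, was at 19.1, 22.9 and 26.3 CPM in the high and at 27.3, 31.2 and 41.5 CPM in the low mice (log2FC -0.53). Pdgfrb, the receptor gene that marks pericytes, was at 14.8, 18.9 and 22.4 CPM in the high and at 23.0, 24.8 and 27.8 CPM in the low mice (log2FC -0.43). Adam12, a membrane metalloprotease gene, had the narrowest high group of these, at 5.62 to 6.003 CPM against 7.15 to 8.51 CPM. Zic2 is a transcription factor of the dorsal forebrain and meninges, and Elf1 one of the ETS family.

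The order of likeness to Tsc22d3 was taken over all 18 mice, as Pearson's r of log2 CPM among 15109 genes with a mean of at least 1 CPM, again as a description of the libraries that were ranked. Gm19439 had the highest r, 0.92, and kept 0.863 without the 2 mice whose Tsc22d3 was farthest from the median. High values were also found for Arrdc2 (0.806), Ubl4a (0.80) and Ppp1r3g (0.792). Sgk1 stood at place 7 with 0.785, Errfi1 at 21 with 0.762, Plin4 at 48 with 0.727 and Fkbp5 at 106 with 0.676, while Per1 stood at 1478 with 0.448. At the other end were Mmp14, a membrane-bound matrix metalloprotease gene (-0.838), Adam12 (-0.832), D430042O09Rik (-0.816), the pseudogene Gm18290 (-0.806) and Trim25 (-0.792). Not all of this order was seen in the Egr1cKO mice. There r was 0.858 for Gm19439, 0.948 for Arrdc2, 0.901 for Ppp1r3g and 0.0174 for Ubl4a. For Mmp14, Adam12, D430042O09Rik, Gm18290 and Trim25 it was -0.439, -0.205, 0.216, -0.309 and -0.224, all without a test. Mmp14 was at 8.65, 11.8 and 15.5 CPM in the high and at 15.3, 19.4 and 32.1 CPM in the low mice, a log2FC of -0.82. A single high mouse, at 15.5 CPM, reached into the range of the low mice. After subtraction of the means of each sex and genotype group, the median r of the 29 glucocorticoid-induced genes with Tsc22d3 was 0.405, beside 0.553 before it. Other lists were farther from 0 by this measure. Heat shock and unfolded protein genes had 0.56, beside 0.48 before it, and endothelial markers -0.87, beside -0.37. The median over all genes tested was 0.0017.

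The 6 Egr1cKO mice gave a test of the same relation in libraries that the ranking had not used. Tsc22d3 and the other genes were again read from the same libraries with the same scaling. The genes and lists were also chosen with earlier results of these data known. With log2 CPM of Tsc22d3 as a numeric term in edgeR, none of 18208 genes passed an adjusted p of 0.05 (0.0% called; 1011 had an unadjusted p under 0.05), while DESeq2 called 34. All 29 listed glucocorticoid-induced genes had a log2FC above 0 for each doubling of Tsc22d3 (50.5% of all genes), with a median of 0.39, and 19 of them had an unadjusted p under 0.05 with that sign (2.13% of all genes). Other lists rose as well, with 8 of 8 astrocyte markers (median 0.14), 9 of 10 heat shock genes (0.29) and 11 of 14 receptor axis genes (0.12) above 0. Above 0 were 0 of 6 choroid plexus, 2 of 8 striatal and 3 of 8 endothelial markers. Of the 34 genes that had been higher without overlap 29 were above 0 here, with a median of 0.18, and of the 29 that had been lower 24 were below 0, with a median of -0.24.

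Sgk1 was at 56.3, 91.7 and 148.5 CPM (lowest, median, highest) in the Egr1cKO mice and had a slope of 0.95 ± 0.15 (SE) for each doubling of Tsc22d3, with an adjusted p of 0.393 in edgeR. Its Pearson's r with Tsc22d3 over the 6 mice was 0.923 (exact permutation p = 0.0139, adjusted over 3 genes p = 0.0417) and its Spearman's rho 0.943 (exact permutation p = 0.0167, adjusted p = 0.05), and r was 0.712 in the 4 mice left without the 2 farthest from the median of Tsc22d3. Fkbp5 had an r of 0.718 (exact permutation p = 0.0972, adjusted p = 0.146) and a rho of 0.6 (p = 0.242, adjusted p = 0.362), which did not hold without those 2 mice (0.301). Plin4 had an r of 0.465 (exact permutation p = 0.361, adjusted p = 0.361) and a rho of 0.429 (p = 0.419), and 0.0957 without them. In fits across all genes the call of Sgk1 depended on the setting: DESeq2 gave an adjusted p of 1.98e-06, edgeR without a filter on low counts 0.0195 and edgeR without the male replicate 2 0.0147, and the range over all alternatives was 1.98e-06 to 0.998.

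Sex and Tsc22d3 cannot be told apart in these 6 mice by their order alone, as all 3 females were above all 3 males. With sex as a further term the slope of Sgk1 was 1.58 ± 0.22 (adjusted p = 0.854 in edgeR) and that of Fkbp5 0.40 ± 0.28. The smallest p in the fit belonged to Slc2a1, the glucose transporter gene of the blood-brain barrier, at 0.71 ± 0.081 (adjusted p = 0.0736). Next came Arrdc2 at 1.01 ± 0.15 (adjusted p = 0.386) and Sgk1. Ppp1r3g followed at 1.06 ± 0.19 (adjusted p = 0.44). Arrdc2 was at 8.03, 10.9 and 25.0 CPM in these mice and Ppp1r3g at 5.80, 8.40 and 19.3 CPM. Cldn5 had the opposite sign at -0.76 ± 0.13 (adjusted p = 0.44). Of 14 activity-induced genes, the deleted Egr1 among them, 13 were above 0 as well (50.5% of all genes). Of these, 9 had an unadjusted p under 0.05 (2.13% of all genes). Between the high and low mice with intact Egr1, where the sexes were balanced, 8 of 14 were above 0. The difference between the 2 sets of mice was not tested. Among 5 blood markers all were below 0 in the Egr1cKO mice, 3 of them with an unadjusted p under 0.05 (3.43% of all genes). The part of blood in these slopes was not tested.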

How the data were processed

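Hippocampal polyA RNA of 24 mice was sequenced in paired-end mode. The authors trimmed the reads with Trim Galore, mapped them to mm10 (GRCm38) and counted them with STAR, and deposited unnormalized counts of non-stranded libraries for 36605 genes; per the submitters' processing notes the versions were Trim Galore 3.8.2 and STAR 2.7.9, while the paper's methods give other versions of both. The gene annotation is not given in the sources used here. Symbols for 36493 genes and positions came from GENCODE M21. Totals ran from 18025168 to 34955004 counts, and no 2 mice of a group agreed within sampling noise.

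Mice were ranked by counts over the column total. The choice of Tsc22d3, of the mice and of all gene lists was made with earlier results of these data known. Levels and tests used edgeR 4.0.16 in R 4.3.3 (TMM, filterByExpr with a minimum count of 10, quasi-likelihood test, Benjamini-Hochberg adjustment at 0.05); DESeq2 1.42.0 was an alternative. A SE is the size of the log2FC over the square root of F. Correlations used log2(CPM + 0.1). Exact permutation tests were two-sided (SciPy 1.17.1). Named were the 4 markers, list members, the 10 largest rises and falls without overlap at a mean of at least 1 CPM, the 5 genes most like and unlike Tsc22d3 and the genes of smallest p in Egr1cKO mice. A gene that this rule covers is not reported here. The fits were tested on simulated data. Replicate numbers did not pair the mice (7 of 45 same-numbered pairs had correlated deviations over 0.1), so the main fits had no replicate block and a fit with it was an alternative. Other alternatives were no filter, DESeq2 size factors, plain CPM, other group sizes, and mice left out in turn.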

Additional observations from a re-analysis of the deposited data

Results flagged for a closer look

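In groups of 6 mice, 9 of 150 sets of values held a mouse far from the other 5, where chance flags about 5% of such sets. In the high group these were Slc39a5 at 2.53 CPM in the male Egr1wt NesCre+ mouse (replicate 3; the others were at 0.956 to 1.31), Dusp5 at 38.9 CPM in the male Egr1f NesCre- mouse (replicate 3; 27.6 to 29.2), Rrp8 at 14.0 CPM and L3hypdh at 2.23 CPM in the male Egr1wt NesCre- mouse (replicate 1; 10.4 to 11.4 and 2.60 to 2.77), and Glul at 1032 CPM in the male Egr1wt NesCre+ mouse (replicate 3; 1254 to 1327). In the low group they were Zic2 at 23.1 CPM and Gpd1 at 56.0 CPM in the female Egr1wt NesCre+ mouse with Ttr at 1906 CPM (replicate 1; 11.6 to 12.6 and 78.9 to 90.7), and Glul at 919 CPM in a male Egr1wt NesCre+ mouse (replicate 1; 1148 to 1252). Among Egr1cKO mice Bcl6 was at 32.5 CPM in a male (replicate 3; 53.6 to 65.7).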

How the results depend on the processing

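Groups chosen on a measured value and 6 mice a side limit every difference between high and low mice to a description, and genes near 1 CPM rest on few counts. The log2FCs of Fkbp5, Sgk1 and Plin4 and the median of the glucocorticoid-induced list stayed above 0 in all 23 alternatives each. The median moved most, to 0.12, within the Egr1f NesCre- mice; with 1 of the 12 mice left out it ran from 0.26 to 0.35. Counts without overlap rose when mice were left out, which fewer mice bring by construction: to between 45 and 149 higher and between 38 and 90 lower genes with 1 mouse fewer, most without the female Egr1f NesCre- mouse (replicate 1), and to 146 and 156 without the 3 mice with Ttr over 100 CPM. Without a filter on low counts 79 genes were called for Egr1f NesCre-, 184 for Egr1wt NesCre+ and 48 for sex, and DESeq2 called 11, 38 and 17. The cause of these differences between tools and filters was not tested. With 1 mouse left out these counts were 0, 0 to 1 and 8 to 11. Along Tsc22d3 in Egr1cKO mice DESeq2 called 34 genes, no filter 3, the replicate block 6, and leaving out a mouse between 0 and 5 (5 without the male replicate 2, 2 without the male replicate 3). The sex difference of Tsc22d3, -0.021 on the log2 scale, ran from -0.080 to 0.059 with 1 mouse left out and changed sign on CPM without a log (0.731 CPM) and without any of 4 mice (log2FC 0.055, 0.059, 0.038 and 0.029). Against Egr1wt NesCre- mice alone, the difference of the Egr1f NesCre- mice was 0.32 (exact permutation, adjusted p = 0.26). The replicate block was run although the numbers did not pair the mice.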
